A study of Mus musculus with 24 samples.

Results

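XX mouse blastocysts with an obese father and a lean mother were compared with XX blastocysts of lean parents. The comparison rests on 8 arrays, 4 titled M-XX (numbers 21 to 24) and 4 titled K-XX (numbers 13 to 16), of 24 arrays in the study. The arrays were chosen by these titles and by the labelled diet of the parents, and no measured value was used to choose them. All animals were NMRI mice (RjHan:NMRI), an outbred stock. Obese fathers had eaten a modified high-fat, high-calorie diet (HFD) from the age of 3 weeks for 9 weeks, while the mothers of both XX groups and the lean fathers had eaten a control diet (CD) over the same time. Mice were mated at 12 weeks, all of them on the control diet while mating, and blastocysts were collected on day 3.5 post coitum. Each array measured the lysate of a pool of 3 sex-matched embryos that shared a mother. The high-fat cohort had 7 animals of both sexes and the control cohort 14, and the sources used here do not tell which father and mother stood behind a pool. Pools may therefore share parents, and the p-values measure the spread between pools. The study's other arrays, 4 per group, were XY blastocysts of the same kinds of parents and XX and XY blastocysts of obese mothers. The comparison asks whether obesity of the father alone alters the transcriptome of daughters before implantation.

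A blastocyst has an outer epithelium, the trophectoderm, which pumps fluid into a cavity and later forms the placenta, and an inner cell mass, which separates into epiblast and primitive endoderm. The father's sperm carries his genome with its DNA methylation and retained histones and a load of small RNAs. XX embryos receive his X chromosome. In cleavage-stage mouse embryos Xist RNA is transcribed from this paternal X and silences it, the silencing persists in the trophectoderm, and it is undone in the epiblast.

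RNA was released by direct lysis, amplified with NuGEN kits and read on Affymetrix GeneChips. Levels are log2 values made by the authors with RMA, which corrects background, equalises the arrays and sums the probes of a set, and differences are the mean of the obese-father group minus the mean of the lean-parent group on that scale. The number of arrays limits their precision. The standard deviation of all values on an array, its signal spread, was 1.40, 1.81, 1.37 and 1.31 on obese-father arrays 21 to 24 and 1.36, 1.52, 1.52 and 1.46 on lean-parent arrays 13 to 16. Array 22 was the widest of all 24 arrays, while the 3 others of its group were narrower than 3 of the 4 lean-parent arrays. The group means were 1.47 ± 0.23 (SD, n = 4) and 1.46 ± 0.075 (n = 4), a difference of 0.00524 (exact permutation test, two-sided, p = 0.971; the smallest p this design allows is 0.02857). Without array 22 the obese-father mean was 1.36 ± 0.046 (n = 3) and the difference -0.109 (exact p = 0.114). Array 22 correlated least with its group, whose pairs ran from 0.772 to 0.934 with it and from 0.924 to 0.934 without it, against 0.889 to 0.931 among lean-parent arrays. Of the 13311 genes bright enough to be tested, array 22 gave the highest of the 8 values for 3189 (24%) and the lowest for 6174 (46.4%). Counts, list medians and differences of genes that turn on it are therefore also given without array 22.

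**Figure D1:**
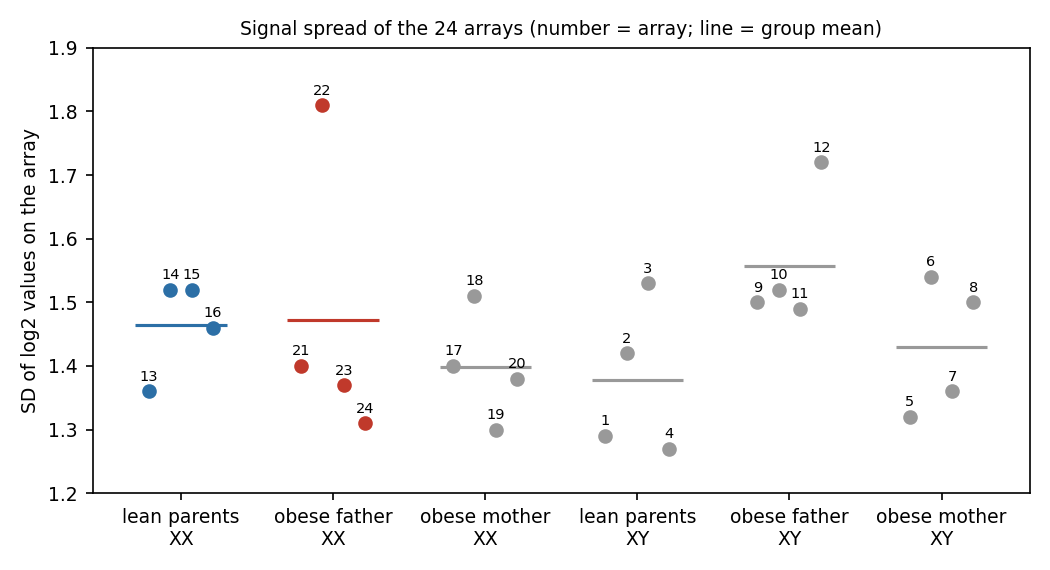
Signal spread (SD of the log2 values, vertical axis) of each of the 24 arrays by group, with array numbers beside the points and a line at the group mean. Array 22 at 1.81 stands above the other 3 obese-father XX arrays at 1.31 to 1.40 and the lean-parent XX arrays at 1.36 to 1.52.

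Labels of sex and tissue were checked first. The Y-linked translation factor gene Eif2s3y stood at 1.12, 1.10, 1.26 and 1.67 on the obese-father arrays and at 1.40, 1.45, 1.10 and 1.35 on the lean-parent arrays, all below the table median of 2.56. In XY blastocysts it was at 1.72 to 2.57 with obese fathers and at 1.41 to 2.77 with lean parents. The testis-determining gene Sry, the 1 Y-linked gene of 9 that was bright enough to be tested, was at 2.57 to 3.17 against 2.61 to 2.96, close to that median in both groups, and in XY blastocysts at 2.87 to 3.41 against 2.39 to 3.04. Neither gene separated every XX from every XY array. Of the Y-linked genes under the filter, Kdm5d had a mean of 1.71 in XX and 1.52 in XY with obese fathers. With lean parents it was at 1.99 and 1.88. Uba1y and Usp9y were lower in XY with obese fathers and higher with lean parents. Zfy1 was at 1.52 in both sexes with obese fathers. Uty and Zfy2 had slightly higher means in XY in both comparisons. These levels thus check the labels of sex only in part, mainly through Eif2s3y. Keratins of the trophectoderm, Krt8 (6.37 to 9.0 over the 8 arrays) and Krt18 (5.93 to 8.35), and the pluripotency factor Pou5f1 (4.52 to 8.0) were well above that median on every array. The endoderm factor Sox17 (2.69 to 3.13) lay close to it.

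No gene passed the threshold in XX blastocysts of obese fathers. With limma over all 13311 genes the count at a Benjamini-Hochberg adjusted p under 0.05 was 0 (0%), and the smallest adjusted p was 0.9997. At an unadjusted p under 0.05 there were 378 genes (2.84%), 260 higher (1.95%) and 118 lower (0.886%), where unchanged genes give 5% on average. Without array 22 the adjusted count was again 0, with a smallest adjusted p of 0.681, and 798 genes (6.0%) had an unadjusted p under 0.05, 574 higher (4.31%) and 224 lower (1.68%). Both counts included 144 genes with the same sign, 103 higher and 41 lower. The 7806 probe sets without a gene name of their own gave 0 calls as well, with 275 at an unadjusted p under 0.05 and a smallest adjusted p of 0.346.

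The precision of the comparison sets what it could miss. The standard error of a difference had a median of 0.183, and the 95% confidence interval reached 0.379 to either side for the median gene. For 11624 genes (87.3%) the whole interval lay within 1 log2 unit of 0. Changes of that size were therefore outside the interval for most genes, while many smaller ones lay within it. A difference over 1 was seen for 19 genes on the higher and 10 on the lower side with all arrays, and for 2 and 177 without array 22. Leaving out this array turned the sign of 4208 genes (31.6%). The median over all genes was 0.0206 with it and 0.0638 without it.

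Array 22 also set much of the spread within the group. The SD over arrays was larger in the obese-father group for 10117 genes (76%), with a median of 0.325 against 0.212 among lean-parent arrays. Without array 22 its median was 0.18, and 5424 genes (40.7%) had the larger SD in the obese-father group.

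**Figure D2:**
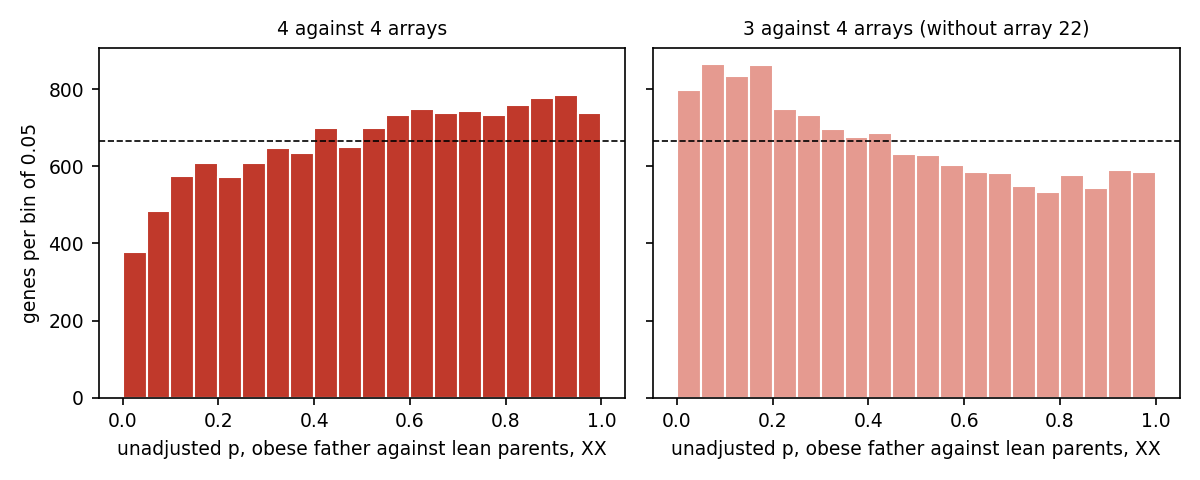
Number of genes (vertical axis) in bins of 0.05 of the unadjusted p of obese father against lean parents, XX, with all 8 arrays (left) and without array 22 (right); the dashed line is the level of an even spread. The first bin holds 378 genes on the left, fewer than the 483 of the next bin, and 798 on the right, where the next bin holds 864.

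The 12 higher and 12 lower genes with the smallest unadjusted p are given as values, since none passed. All 24 were dim, with mean levels from 2.40 to 3.97, and in 14 of them (7 on each side) the 4 values of the groups did not overlap, which held for 163 genes (1.22%) of all tested. The 24 were chosen by p on these same arrays, which favours groups without overlap, so their larger share is no separate sign of a difference. Genes specific to other tissues gave levels in the same range, such as Olfr444 (2.18 to 3.94 with obese fathers) and Try5 (2.70 to 4.34). Such levels therefore do not show by themselves that a gene was expressed. Srr, which encodes serine racemase (probe set 10388377, chromosome 11), stood at 2.87, 3.33, 2.39 and 2.81 with obese fathers and at 2.34, 2.06, 2.26 and 1.97 with lean parents. All 4 obese-father arrays lay above the lean-parent arrays, by a mean of 0.69 (SE 0.16, unadjusted p = 0.000274), and by 0.53 without array 22.

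Of the others on the higher side, Slc25a20 encodes the carrier that takes acylcarnitines into mitochondria for fatty acid oxidation. It was at 2.93, 3.51, 2.75 and 3.19 against 2.56, 2.55, 2.85 and 2.24, a difference of 0.55 (SE 0.16), and the groups overlapped. Psmd9, a chaperone of proteasome assembly, was at 3.78, 3.99, 3.14 and 2.75 against 2.21, 2.54, 2.77 and 2.53, a difference of 0.90 (SE 0.23) that also came with overlap. The RNA-binding splicing regulator Celf2 was at 2.99, 2.80, 3.16 and 2.64 against 2.57, 2.37, 2.30 and 2.20 (0.54, SE 0.15), and its groups did not overlap. The same was true of Rnaseh2a, the catalytic subunit of RNase H2, at 3.19, 4.31, 3.33 and 3.45 against 3.05, 3.04, 2.94 and 2.92 (0.58, SE 0.18). Array 22 was the highest of these 4, and the difference was 0.33 without it.

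Csf3r, the receptor of granulocyte colony-stimulating factor, was at 3.44, 3.53, 3.09 and 3.21 against 2.86, 2.55, 2.80 and 2.75 (0.58, SE 0.18; 0.51 without array 22). Cd2, an adhesion molecule of lymphocytes, was at 2.88, 2.45, 2.73 and 3.09 against 2.33, 2.36, 2.39 and 2.30 (0.44, SE 0.13; 0.55 without array 22). Neither overlapped, but both lay within about a log2 unit of the table median. The rest on this side were Angel2 (0.47), the ubiquitin ligase receptor Klhdc3 (0.54), the nuclear envelope protein Ankle2 (0.53), the lipid kinase Pi4ka (0.38) and the galectin-related Lgalsl (0.87).

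Lgalsl (probe set 10384572, chromosome 11) gave the 1 call in any fit of obese father against lean parents in XX blastocysts. It stood at 5.01, 5.25, 3.42 and 4.72 with obese fathers and at 3.85, 3.84, 3.40 and 3.84 with lean parents, so that array 23 and array 15 lay apart from the others of their groups. With all arrays the difference was 0.87 (SE 0.26, unadjusted p = 0.00307). Without array 23 it was 1.26 (SE 0.17, limma adjusted p = 0.00588), and without array 22 it was 0.65. The call thus needed array 23 to be left out.

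On the lower side the smallest unadjusted p belonged to Slc39a5, a zinc transporter of epithelia (probe set 10373374, chromosome 10). Its levels were 3.39, 2.92, 3.42 and 3.11 against 3.85, 3.68, 3.74 and 3.71, all lower with obese fathers by a mean of 0.54 on the log2 scale (-0.54, SE 0.12, limma unadjusted p = 0.000184). Without array 22 the difference was -0.44. Cracr2b, a regulator of store-operated calcium entry, was at 2.11, 2.45, 2.29 and 2.31 against 2.76, 3.03, 2.64 and 2.75 (-0.51, SE 0.15). Usf3, a transcription factor, was at 3.25, 2.79, 2.95 and 2.99 against 3.74, 3.48, 3.47 and 4.00 (-0.67, SE 0.20). The groups of these 3 genes did not overlap.

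The other 9 on the lower side ranged from -0.70 for Ogfod3 to -0.34 for Gpatch2l. Among them Lypd11 (-0.66), Fam53c (-0.61), Ptprv (-0.40), annotated in RefSeq as a transcribed pseudogene, and Gpatch2l had groups that did not overlap. Pheta1 (-0.44), Tmem256 (-0.64), the neurokinin receptor Tacr2 (-0.47) and Pnpla5 (-0.56), of a family of lipases, overlapped. Without array 22, which leaves 7 of the same 8 arrays, 23 of the 24 genes on both sides still had an unadjusted p under 0.05, and Pnpla5 had 0.0553.

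XY blastocysts of obese fathers, set against XY blastocysts of lean parents, share no array with these values. There 9 of the 24 genes had the same sign as in XX blastocysts. At an unadjusted p under 0.05, which 14.7% of all genes had in that comparison, stood 3 of them with the same sign, Fam53c (-0.58), Tacr2 (-0.40) and Pnpla5 (-0.58), and 1 with the opposite sign, Rnaseh2a (-0.38). None of these passed after adjustment. XX blastocysts of obese mothers were set against the same lean-parent XX arrays, so those differences are not independent. There 2.19% of all genes had an unadjusted p (limma) under 0.05. Of the 24 genes, those at that p were Cd2 (0.54), Ankle2 (0.49), Slc25a20 (0.43), Klhdc3 (0.41), Celf2 (0.31), Pi4ka (0.26), Ogfod3 (-0.5) and Tmem256 (-0.5). All had the same sign as with obese fathers, and only Rnaseh2a (-0.08) of the 24 had the opposite sign.

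**Figure D3:**
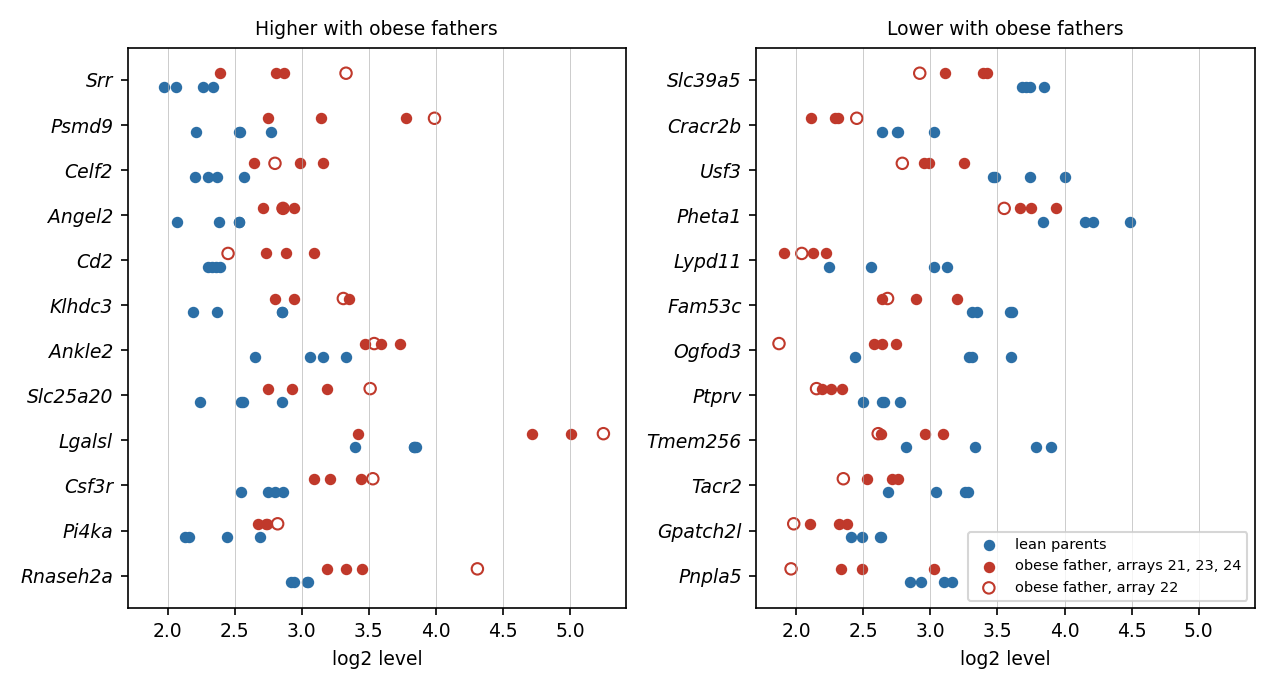
Log2 level (horizontal axis) of the 12 higher and 12 lower genes with the smallest unadjusted p on each of the 8 XX arrays; blue points are lean-parent arrays, filled red points obese-father arrays 21, 23 and 24, open red points array 22. Srr, Celf2, Cd2, Csf3r and Slc39a5 are examples without overlap, and Lgalsl shows array 23 among the lean-parent values.

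Groups that did not overlap were seen for 108 genes on the higher (0.811%) and 55 on the lower side (0.413%), and without array 22 for 842 (6.33%) and 343 (2.58%), together 8.90% of all genes. Leaving out any array can only add genes to such a count, so the shares with and without array 22 are not directly comparable. Among those with the widest gaps, the replication initiation factor Mcm10 was at 3.42, 3.43, 3.36 and 3.54 against 3.03, 2.96, 3.03 and 2.58 (0.54, SE 0.21), and the kinetochore protein Cenpt was at 3.59, 3.42, 3.59 and 3.56 against 2.91, 3.27, 3.01 and 2.84 (0.53, SE 0.19). Gins3, a subunit of the replicative helicase, went the other way, at 2.17, 2.06, 2.08 and 2.30 against 2.57, 3.34, 2.58 and 2.62 (-0.62, SE 0.24). For these 3 genes the obese-father arrays lay closer together than the lean-parent arrays.

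Other genes with wide gaps on the higher side were the circadian repressor Cry2 (0.36), the chromatin remodeller Chd8 (0.42), the chloride channel protein Clic1 (0.46) and Eif4a3l1 (0.50). Cry2 was at 3.36, 3.27, 3.39 and 3.33 with obese fathers and at 3.09, 2.99, 2.94 and 2.91 with lean parents. On the lower side were Snhg15, a host gene of small nucleolar RNAs (-0.57), Zfp87 (-0.46), Lrg1 (-0.38) and the small nucleolar RNA gene Snord14e (-0.57). Snhg15 was at 3.95, 3.42, 3.92 and 3.68 against 4.73, 4.18, 4.14 and 4.20. None of these genes passed.

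Markers of the first lineages were measured as transcripts of whole embryos, in which fewer cells of a type and less RNA per cell cannot be told apart. Of 25 tested markers of the inner cell mass and epiblast 20 were above 0, with a median of 0.07 against 0.02 over all genes, of which 54.9% were above 0. Without array 22 there were 11 of 25, with a median of -0.07, beside 0.06 and 62.7% over all genes. Nanog, the epiblast factor, was at 4.77, 6.04, 4.83 and 4.90 with obese fathers and at 4.57, 4.70, 4.6 and 4.61 with lean parents. All 4 arrays lay above the lean-parent arrays (0.52, SE 0.26, unadjusted p = 0.0566), most of the difference came from array 22, and without it 0.21 was left. Bmp4, a signalling ligand of the inner cell mass, was 0.37 higher at an unadjusted p of 0.047 and 0.18 without array 22.

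Pou5f1 was at 6.44, 8.0, 5.16 and 4.52 against 5.32, 6.0, 5.57 and 5.89, with a difference of 0.34 (SE 0.73) that became -0.32 without array 22. Sox2, its partner in the epiblast, was at 2.76, 4.66, 3.10 and 3.09 against 2.74, 4.01, 2.84 and 3.96 (0.01, and -0.41 without array 22). Neither gene separated the groups.

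Of 29 trophectoderm markers 22 were above 0 with a median of 0.13, and 16 without array 22 with a median of 0.03. Cdx2, which specifies this lineage, was at 4.52, 6.17, 3.96 and 4.58 against 4.34, 5.21, 4.67 and 4.89, a difference of 0.03 (SE 0.41, 95% confidence interval -0.83 to 0.89). Eomes, a T-box factor of trophoblast stem cells, was at 4.06, 5.08, 4.72 and 4.36 against 4.17, 4.19, 3.88 and 3.96 (0.51, SE 0.25, unadjusted p = 0.0566), and 0.33 without array 22. The groups overlapped through arrays 21, 13 and 14. Gata3 (0.13), Krt8 (0.62, and 0.03 without array 22) and Krt18 (0.25, and -0.31 without it) did not stand apart either.

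Primitive endoderm markers were level, with 13 of 20 above 0 and a median of 0.04, or 9 and -0.04 without array 22. Gata6 (-0.03), Gata4 (-0.25), Sox17 (0.08) and Pdgfra (0.02) all had confidence intervals across 0 with all arrays. Gata6 turned on array 22, at 4.84. Without it the difference was -0.36 (limma unadjusted p = 0.0726), and arrays 21, 23 and 24 lay below every lean-parent array. Foxa2 went the other way, at 0.34 with all arrays and 0.57 without array 22 (limma unadjusted p = 0.00304). Without array 22 the groups did not overlap for 2 members on the higher and 1 on the lower side, beside 6.33% and 2.58% of all genes. With all arrays Lama1, a chain of the basement membrane protein laminin, was the 1 member at an unadjusted p under 0.05 (-0.28, SE 0.13), and it was -0.2 without array 22. Signals that divide the lineages gave medians of 0.07 for FGF and ERK signalling (-0.01 without array 22) and 0.10 for the Hippo pathway (0.07). Gab1, an adaptor of growth factor receptors, was at 3.30, 3.37, 3.27 and 3.48 against 3.29, 3.03, 2.71 and 2.54 (0.46, SE 0.17, unadjusted p = 0.0105). It was as high without array 22 (0.46). Among genes of tight junctions and blastocoel transport, Marveld2, which seals tricellular junctions, was 0.49 higher (SE 0.20) and 0.27 without array 22.

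Xist was at 2.40, 2.79, 2.11 and 2.39 with obese fathers and at 2.19, 3.47, 3.54 and 2.49 with lean parents. Lean-parent arrays 14 and 15 were high and the other 6 arrays lay together, so that the difference of -0.50 (SE 0.28, 95% confidence interval -1.08 to 0.08) came with overlap, and it was -0.62 without array 22. In XY blastocysts Xist was at 1.93 to 2.68 with obese fathers and at 1.89 to 2.26 with lean parents. The obese-father XX arrays (mean 2.42) thus overlapped the XY arrays of obese fathers (mean 2.34), and of the lean-parent XX arrays only array 13 lay within the range of lean-parent XY arrays. The 366 X-linked genes had a median of 0.03, beside 0.02 for all genes, and 209 were above 0. Without array 22 the median was 0.06, equal to that of all genes. At an unadjusted p under 0.05 were 7 X-linked genes on the higher and 2 on the lower side, beside 1.95% and 0.886% of all genes. The list of X inactivation and of genes that escape it had 9 tested genes, of which 8 were above 0 with a median of 0.30, and 4 with a median of -0.35 without array 22, whose mean over the list was 5.30 against 3.36 to 3.86 on the other 7 arrays. Its 1 member at an unadjusted p under 0.05 was Utp14a, a factor of ribosome biogenesis, at 3.29, 4.78, 2.79 and 2.40 against 2.58, 2.69, 2.62 and 2.24 (0.78, SE 0.35; 0.29 without array 22).

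Imprinted genes, which are read from the allele of a single parent, did not differ as groups. Those read from the paternal allele had a median of 0.01 (10 of 17 above 0) and those read from the maternal allele 0.02 (11 of 21), or 0.14 and 0.08 without array 22. Mcts2, read from the paternal allele, was 0.66 higher through array 22 (2.56, 4.46, 2.48 and 3.18 against 2.33, 2.67, 2.56 and 2.49) and 0.23 without it. Cd81 (-0.28) and Calcr (0.29), read from the maternal allele, had an unadjusted p under 0.05 in opposite directions.

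DNA methylation genes and guardians of imprints had 13 of 18 above 0 and a median of 0.11, or 8 and -0.05 without array 22. The maintenance enzyme Dnmt1 was at 3.03, 3.73, 3.27 and 3.35 against 3.08, 3.11, 2.83 and 3.12 (0.31, SE 0.15), the de novo enzyme Dnmt3a was 0.27 higher and its cofactor Dnmt3l 0.48. Each was 0.18 without array 22, and none had an unadjusted p under 0.05. Among 41 histone-modifying enzymes 3 did, all on the higher side, where 1.95% of all genes did, and the median of the list was 0.14. They were the acetyltransferase Kat2a (0.61, SE 0.20), the X-linked deacetylase Hdac8 (0.42, SE 0.15) and the demethylase Kdm4a (0.35, SE 0.17). Without array 22 they were at 0.32, 0.51 and 0.20, and the median of the list was -0.03.

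Lists with a bright signal also depended on array 22. Cytosolic ribosomal protein genes had mean levels of 7.20, 8.77, 6.79 and 6.02 on the obese-father arrays and 6.75, 7.80, 7.63 and 7.43 on the lean-parent arrays. Of 56 members 8 were above 0, with a median difference of -0.22, and without array 22 it was 2 of 56 with a median of -0.77. Members at an unadjusted p under 0.05 were 0 with it and 4 without it, all lower, where 1.68% of all genes were lower without it. Rpl27a was at 9.0, 10.2, 8.75 and 7.23 against 8.71, 9.51, 9.97 and 9.97 (-0.75, SE 0.51; -1.21 without array 22). Rplp0, a protein of the ribosomal stalk, was the highest member at 1.04 (SE 0.78). With the spread of the arrays as a covariate the list's median without array 22 was 0.06, and with a further quantile normalization it was -0.32. The list mean was lowest on array 24, the array of the narrowest spread among the 8, and highest on array 22, the widest. The part of the spread in these medians was not tested apart from these fits.

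Oxidative phosphorylation genes, which make up the respiratory chain and ATP synthase, behaved in the same way. Their means were 5.07, 6.82, 5.17 and 4.55 against 5.16, 5.70, 5.54 and 5.50. With all arrays 33 of 73 were above 0 (median -0.07), and without array 22 it was 7 of 73 (median -0.51), with 13 at an unadjusted p under 0.05 on the lower side, where 1.68% of all genes were. The proteasome had 19 of 38 above 0 (median 0.02) and 5 without array 22 (-0.51), and translation factors had 30 of 40 (0.20) and 5 (-0.43). With array 22 left out and the spread as a covariate these 3 medians were -0.07, 0.11 and 0.18. Psma1, a subunit of the proteasome core, shows the pattern within a gene, at 4.27, 7.82, 4.18 and 3.78 against 4.70, 6.52, 6.78 and 6.13. Arrays 21, 23 and 24 lay below every lean-parent array and array 22 above all of them (-1.02, SE 0.85; -1.96 without array 22).

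The brightest genes also shifted without array 22, but their median did not turn sign. For 242 genes with a mean level over 6, a cut chosen after the values were seen, the median difference was -0.168 with 62 above 0, and -0.744 with 46 above 0 without array 22.

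**Figure D4:**
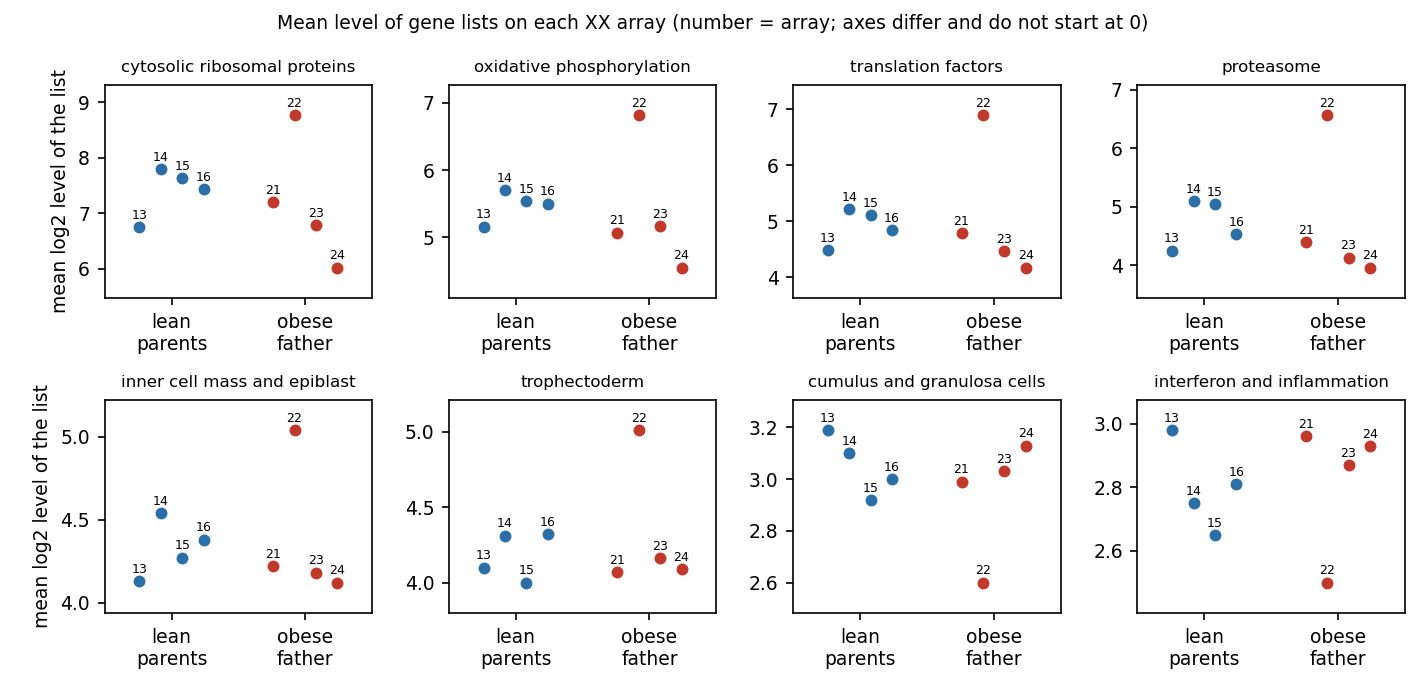
Mean log2 level (vertical axis, different in each panel and not starting at 0) of the tested genes of 8 lists on each XX array, with array numbers beside the points. Array 22 is the highest point in the upper 4 panels, the inner cell mass and the trophectoderm, and the lowest for cumulus and granulosa cells and for interferon and inflammation.

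Metabolic lists gave medians on either side of 0. The tricarboxylic acid cycle had 20 of 24 above 0 (median 0.12), or 7 (-0.19) without array 22, and fatty acid oxidation had 13 of 17 (0.14), or 7 (-0.09). Idh2, the mitochondrial NADP-dependent isocitrate dehydrogenase, was at 3.47, 4.26, 3.90 and 3.74 against 3.23, 3.62, 3.16 and 3.26 (0.52, SE 0.17, unadjusted p = 0.00589; 0.38 without array 22). Only array 21 lay within the lean-parent range. Eci2, an isomerase of unsaturated fatty acid oxidation, was at 2.73, 2.93, 2.87 and 2.47 against 2.45, 2.34, 2.44 and 2.32 (0.36, SE 0.17), above every lean-parent array but by a narrow gap.

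Glucose uptake and glycolysis genes had a median of -0.07 (9 of 19 above 0), with 0 at an unadjusted p under 0.05. Without array 22 the median was -0.13, with 1 member lower at that p, beside 1.68% of all genes. Lipid synthesis and storage had 0.06 (0.04 without array 22), with the desaturase Scd2 (0.34) and the elongase Elovl1 (0.29) at an unadjusted p under 0.05, and cholesterol synthesis had 0.05 (0.06), with the sterol oxidase Msmo1 at 0.35. Cyp51, another enzyme of that pathway, was at 3.42, 2.96, 3.72 and 3.68 against 3.11, 3.10, 3.14 and 3.09. Arrays 21, 23 and 24 lay above the lean-parent arrays and array 22 below them, and the difference was 0.34 with it and 0.50 without it. Genes of insulin, IGF, leptin and mTOR signalling had a median of 0.12 (0.04 without array 22), and the mTOR partner Rptor was 0.38 higher (SE 0.15, unadjusted p = 0.0211), or 0.34 without array 22.

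Cell cycle genes had 28 of 37 above 0 with a median of 0.17. At an unadjusted p under 0.05 were 4 of them, all on the higher side, beside 1.95% of all genes. The list had 0 members whose groups did not overlap. Without array 22 it was 0 higher and 2 lower at that p, beside 4.31% and 1.68% of all genes, and the median was -0.11. The replication licensing factor Mcm6 was at 3.35, 6.79, 3.37 and 3.28 against 2.58, 3.31, 3.25 and 3.01 (1.16, SE 0.50), and without array 22 it was 0.29. Cdc6, which loads the replicative helicase, was at 3.8, 4.30, 3.14 and 3.10 against 2.28, 3.10, 3.02 and 2.80 (0.78, SE 0.30), with 0.55 left without array 22. The cyclin Ccne1 (0.32, and 0.22 without array 22) and the spindle checkpoint kinase Ttk (0.51, and 0.18 without it) were the other 2.

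Stress lists showed few members apart. The antioxidant list had a median of 0.16 with 18 of 28 above 0, and -0.08 with 12 above 0 without array 22. Keap1, the sensor that restrains Nrf2, was at 3.2, 3.08, 3.13 and 3.29 against 3.07, 2.90, 2.82 and 2.89, without overlap (0.26, SE 0.11, unadjusted p = 0.0298), and it was 0.29 without array 22. Sod1, the cytosolic superoxide dismutase and a bright gene, was at 5.89, 8.13, 6.72 and 6.09 against 6.07, 7.83, 8.84 and 7.96 (-0.97, SE 0.51, unadjusted p = 0.0705). Without array 22 the difference was -1.44 (unadjusted p = 0.00696). Endoplasmic reticulum stress (median 0), p53 targets and apoptosis (-0.02) and interferon and inflammation (0.03) had 0 members at an unadjusted p under 0.05. Without array 22 their medians were -0.15, -0.06 and 0.09, with 1 higher and 2 lower members at an unadjusted p under 0.05 in the first, 0 in the second and 3 of 18 in the last, all higher, beside 4.31% higher and 1.68% lower over all genes. The medians for autophagy and lysosome (0.08) and for maternal contact and implantation (0.04) came with 0 such members too, and were -0.07 and 0.09 without array 22. Ribosome biogenesis (0.21, and -0.12 without array 22) had 1, the nucleolar methyltransferase Fbl (0.70, and 0.39 without array 22).

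Lists for cells that could be carried over into a pool had medians below 0 with all arrays and above 0 without array 22. Of 13 tested markers of cumulus and granulosa cells, of 22 listed, 3 were above 0 with a median of -0.09, and their mean level was 2.60 to 3.13 with obese fathers and 2.92 to 3.19 with lean parents. Inhbb, a subunit of inhibin and activin, was lower on all 4 arrays (2.66, 2.26, 2.63 and 2.44 against 3.04, 2.68, 2.95 and 2.68), by a gap of 0.03. Its difference was -0.34 (SE 0.17, limma unadjusted p = 0.0521), and -0.26 without array 22. Of the 13 cumulus and granulosa markers 7 were above 0 without array 22. Blood and leukocyte markers, 4 tested of 22, were at 2.55 to 3.23 against 2.86 to 3.40. Uterine and oviduct epithelium (11 tested of 21) was at 2.91 to 3.27 against 3.11 to 3.16, sperm transcripts (14 of 22) at 2.83 to 3.28 against 3.01 to 3.23, and oocyte-derived transcripts (16 of 31) at 3.26 to 3.41 against 3.33 to 3.44. Array 22 was the lowest of the 8 arrays in each of these lists, and without it their medians were 0.01 for cumulus and granulosa cells and for oocyte-derived transcripts, 0.13 for blood, 0.11 for uterine epithelium and 0.14 for sperm, beside 0.06 for all genes. At an unadjusted p under 0.05 there were then 2 uterine members, both higher, the transcription factors Foxa2 (0.57, unadjusted p = 0.00304), which the primitive endoderm list also holds, and Pax8 (0.38), and 1 sperm member, also higher. Of all genes 4.31% were higher at that p. The part of such cells in the results was not tested.

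Over all 35 lists with at least 4 tested genes, 0 genes were called. Array 22 had the highest list mean of the 8 arrays for 25 lists and the lowest for 10. Medians were above 0 for 25 lists with all arrays and for 15 without array 22, and ran from -0.22 to 0.30 and from -0.77 to 0.14.

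**Figure D5:**
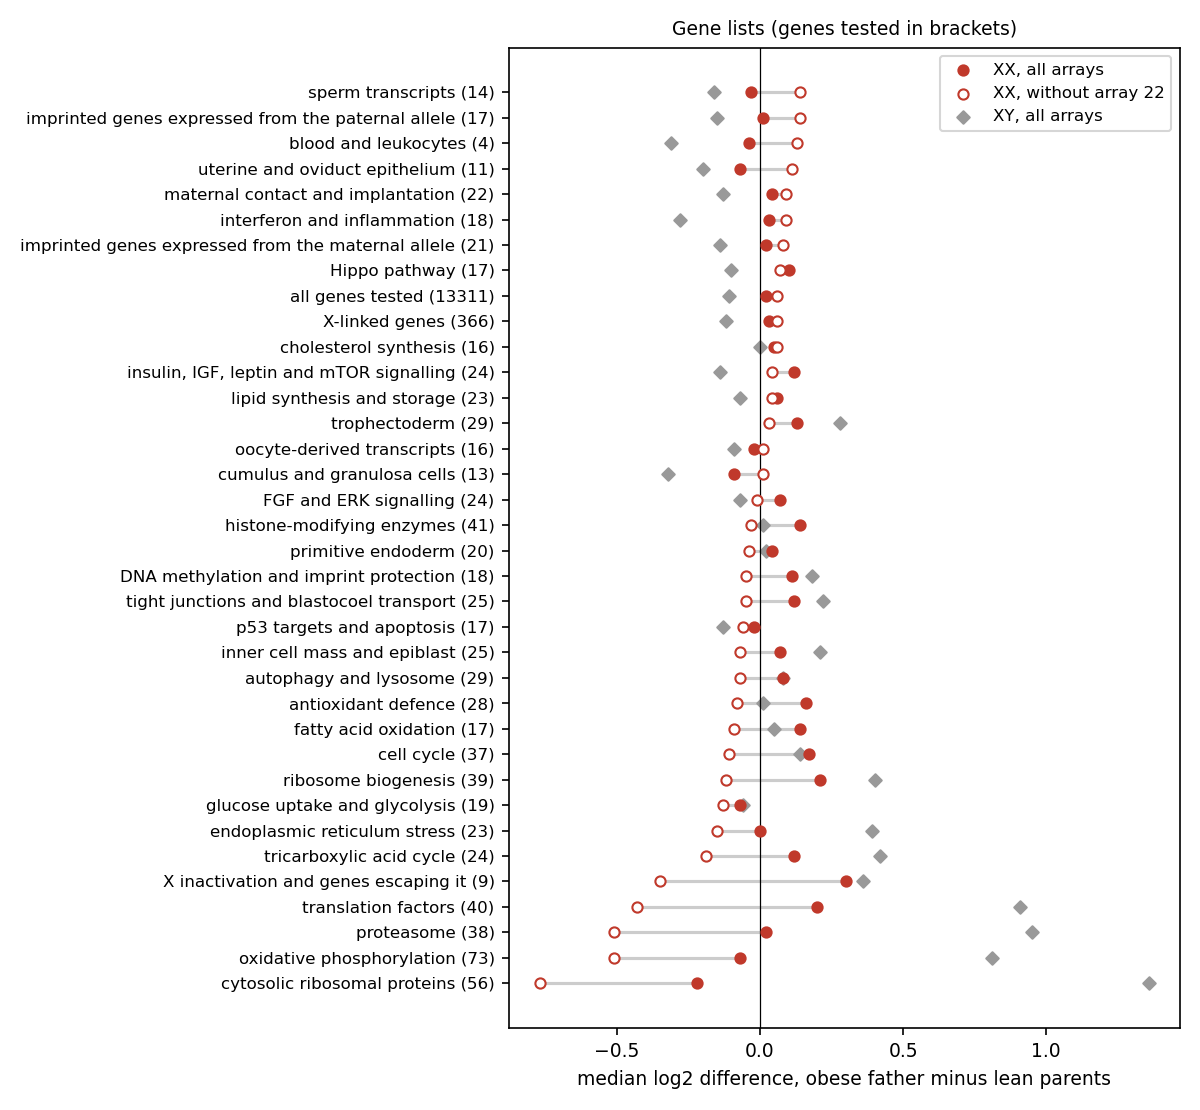
Median log2 difference of obese father minus lean parents (horizontal axis) for each gene list, with the number of genes tested in brackets; filled red points are XX with all arrays, open red points XX without array 22, grey diamonds XY. Cytosolic ribosomal proteins move from -0.22 to -0.77 without array 22 and stand at 1.36 in XY blastocysts.

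Some genes varied widely between pools of the same group. Wtap, a subunit of the RNA methylation complex, was at 2.09, 8.86, 2.75 and 4.22 with obese fathers and at 3.70, 5.61, 7.47 and 5.60 with lean parents. Pcnp (2.27, 8.32, 2.11 and 3.03), Rbbp6 (1.82, 7.25, 1.98 and 2.38) and Otud6b (1.54, 7.24, 2.08 and 2.94) had the same single high array. On these genes array 22 stood 5.05 to 5.85 above the mean of the other 3. Rab2a, a small GTPase of vesicle traffic, varied in both groups (2.0, 7.41, 6.64 and 4.86 against 2.91, 6.65, 7.45 and 5.53), as did Scarna17. Among lean-parent arrays the interferon zeta gene Ifnz was high on array 13 alone (6.34 against 2.43 to 3.14) and Fthl17f, an X-linked gene of the ferritin family, on array 14 alone (5.38 against 1.65 to 2.26). Their obese-father values were 2.66 to 2.96 and 1.95 to 3.05.

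Whether the father's obesity acted differently in XX and XY blastocysts was tested as the difference of the 2 effects, XX minus XY. No gene passed (0%, smallest adjusted p = 0.654). At an unadjusted p under 0.05 were 1003 genes (7.54%), 756 higher and 247 lower in XX, and without array 22 it was 3185 (23.9%) with 0 called and a smallest adjusted p of 0.0611. The signal spread of XY arrays was 1.56 ± 0.11 (n = 4) with obese fathers and 1.38 ± 0.12 (n = 4) with lean parents, the reverse of XX without array 22 (exact p = 0.114 in both). Across genes, which are not independent replicates, the XX and XY differences correlated at 0.0666 with all arrays and at -0.627 without array 22. The part of the signal spread in this correlation was not tested.

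Small RNA genes led the lower side of that difference. The array reads the locus or precursor of a microRNA and not the mature product, whose RefSeq sequences (GRCm38.p6, plus strand) are given to show what the 2 named loci encode, with the seed, bases 2 to 8, in capitals. The seeds differ between the 3 products.
mmu-miR-680: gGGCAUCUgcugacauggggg
mmu-miR-346-5p: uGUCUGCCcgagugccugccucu
mmu-miR-346-3p: aGGCAGGGgcugggccugcagc
The first lies at chr6:129691541-129691561, the other two at chr14:34894624-34894646 and chr14:34894662-34894683.

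Mir680-1 was at 2.52, 1.91, 2.46 and 3.35 with obese fathers and at 2.47, 2.92, 4.74 and 3.17 with lean parents in XX blastocysts, a difference of -0.77 (SE 0.38) with overlap. In XY blastocysts it was at 3.90 to 4.64 against 2.01 to 2.82 (1.94) without overlap, as were 8.54% of all genes there, and XX minus XY was -2.71 (SE 0.54, unadjusted p = 5.25e-05). Mir346 was at 5.72, 5.71, 5.65 and 5.63 against 5.67, 6.14, 6.39 and 5.83 in XX (-0.33) and 0.81 higher in XY. Its XX minus XY of -1.15 (SE 0.28) was -0.36 after quantile normalization.

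The small nucleolar RNA gene Snord47, the 1 gene called in XY (0.00751%), was at 1.23, 1.9, 1.61 and 2.34 against 1.96, 1.61, 1.22 and 1.41 in XX (0.22, SE 0.32), all below the table median. Among the arrays of obese fathers and lean parents, only the 4 XY arrays of obese fathers (2.87 to 4.74) lay above that median. The gene thus met the filter of 4 arrays through the group where it is high, and its call is no separate support. XX minus XY for Snord47 was -2.04 (SE 0.46, limma adjusted p = 0.654). Krtap5-3, of a family of hair keratin partners, was at 4.65, 5.10, 4.83 and 4.91 against 4.51, 5.68, 6.40 and 6.50 (-0.90, SE 0.39), and XX minus XY was -2.33. Marcksl1, a substrate of protein kinase C, had -1.64, and -0.61 after quantile normalization, and the phosphatase Ilkap had -0.82.

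On the higher side Celf2, Rnaseh2a and 4 other genes had the smallest p. Kank1, a regulator of the actin cytoskeleton, was at 2.73, 2.91, 2.63 and 2.47 against 2.59, 2.41, 2.29 and 2.17 in XX (0.32) and 0.48 lower in XY (-0.48), so that XX minus XY was 0.80 (SE 0.18, unadjusted p = 0.000171). Celf2 had 0.83 (SE 0.21) and Rnaseh2a 0.96 (SE 0.25). The innate immune receptor Tlr2 had 0.62, all of it from XY, since it was at 2.81, 2.53, 2.76 and 3.0 against 2.60, 2.78, 2.81 and 2.88 in XX (0.01). Epb41l5 had 0.70 and the zinc transporter Slc39a4 0.56.

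Of the gene groups, cytosolic ribosomal proteins stood farthest apart between the sexes, with medians of -0.22 in XX and 1.36 in XY. Their median XX minus XY was -1.61, and 17 of 56 members had an unadjusted p under 0.05 on the lower side, which 1.86% of all genes had. Oxidative phosphorylation had -0.91 with 15 of 73, the proteasome -0.82 with 1 of 38 and translation factors -0.70 with 2 of 40. The signal spread of the arrays, given above, moved with these medians, and its part in them was not tested. XX blastocysts of obese mothers share the lean-parent XX arrays with the comparison described here, so the 2 sets of differences are not independent. For obese mothers 0 genes passed, 291 (2.19%) had an unadjusted p under 0.05, and the median of the ribosomal proteins was -0.60.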

How the data were processed

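Each of the 24 arrays (Affymetrix, 1 per pool of 3 blastocysts) gave 1 column of deposited log2 values. Per the submitters' processing notes, these were made by the authors with RMA in affy; the sources used here give no version, genome build, scan date or batch. Of 35556 probe sets, 21789 had 1 gene symbol in GEO's platform annotation, 1621 several and 12146 none. Gene numbers of 21698 were found in a RefSeq table (GRCm38.p6) and 0 symbols changed. For genes with several sets the set with the highest mean stood for the gene. Testing was limited to genes above the table median of 2.56 on at least 4 arrays, which kept 13311 of 19938 genes.

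The means of the 6 groups were estimated together from all 24 arrays with limma 3.58.1 in R 4.3.3 (lmFit, eBayes, 18 residual degrees of freedom), without covariates. A gene was called at an adjusted p (Benjamini-Hochberg) under 0.05. Array spreads were compared with exact permutation tests. The scripts were tested on simulated data. The members and gene lists were chosen with earlier results of these data known. Genes named are the 12 per direction with the smallest unadjusted p (6 for XX minus XY), the widest gaps between groups, up to 4 members of a list by p, lineage markers, Xist and Y-linked genes, and the genes with the largest SD or set apart on array 22, leaving out names without information. Glod4, Mapk1ip1l and Gas5 were added after their values were seen. Alternatives were no or a stricter filter, the mean of probe sets or all sets, array weights, a robust prior with a trend, the 2 groups (4 for XX minus XY) alone, the spread as a covariate, centring on medians, quantile normalization and each array left out. Array 22 left out together with the spread as a covariate or with quantile normalization was chosen after seeing the data.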

Additional observations from a re-analysis of the deposited data

Results flagged for a closer look

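Values of 256 groups of 4 arrays were examined for an array far from the other 3, which chance gives in about 1 of 20 groups, and 30 were marked, 20 of them for array 22. Genes marked on array 22 were Nanog (6.04 against 4.77 to 4.90), Krt18 (8.35 against 6.01 to 6.20), the replication factor Mcm6 (6.79 against 3.28 to 3.37), the demethylase Kdm4a (3.35 against 2.71 to 2.80) and the proteasome subunit Psma1 (7.82 against 3.78 to 4.27). Mean levels of lists marked on array 22 were 5.04 for the inner cell mass, 5.01 for the trophectoderm, 5.17 for the tricarboxylic acid cycle, 4.34 for fatty acid oxidation, 3.78 for lipid synthesis and storage, 5.01 for antioxidant defence, 4.68 for endoplasmic reticulum stress and 4.70 for the cell cycle. They were 4.13 for DNA methylation, 4.06 for histone-modifying enzymes, 5.30 for X inactivation and escape, 5.22 for ribosome biogenesis, 6.57 for the proteasome, 4.14 for autophagy and lysosome and 3.47 for X-linked genes, all above the other 3 arrays.

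Among lean-parent arrays, array 15 stood apart for Lgalsl (3.40 against 3.84 to 3.85), Zfp87 (3.16 against 2.64 to 2.67), Dnmt1 (2.83 against 3.08 to 3.12) and Dnmt3a (3.22 against 2.94 to 2.96). Array 14 did for Gins3 (3.34 against 2.57 to 2.62), Lama1 (2.44 against 2.87 to 2.90) and the mean of p53 targets and apoptosis genes (3.2 against 3.07 to 3.09). Array 16 did for Mcm10 (2.58 against 2.96 to 3.03), and array 13 for Snhg15 (4.73 against 4.14 to 4.20) and the mean of imprinted genes read from the maternal allele (3.25 against 3.04 to 3.07).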

How the results depend on the processing

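No gene was called in XX blastocysts under any alternative run, apart from 1, Lgalsl, without array 23, so the adjusted count ran from 0 to 1 when an array was left out. The count at an unadjusted p under 0.05 (378) was 603 with no filter, 119 with the stricter filter, 1274 with array weights, 148 with the 2 groups alone and 945 with the spread as a covariate. With an array left out it ran from 308 to 798, the highest without array 22, and was 598 without array 24. Without array 22 it was 860 after quantile normalization and 637 with the spread as a covariate. The cause of these shifts was not tested. The difference XX minus XY gave 0 calls in every fit but the one with the spread as a covariate, which gave 2, Glod4 and Mapk1ip1l, and it stayed at 0 with any of the 16 arrays left out. The difference in signal spread ran from -0.109 (without array 22) to 0.0602 and was -0.0296 without array 13.

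Only part of the named genes was followed through all settings, without those of the largest SD or set apart on array 22. Of the XX differences of the genes followed, 1544 kept their sign and side of the threshold, 29 turned sign and 1 passed it. Of list medians 707 moved by less than the spread between arrays and 13 by more. Among the genes followed, those that turned sign were 6 lineage markers, none of them past the threshold on either side. Other named genes turned too, such as Pcnp (0.91, and -0.55 without array 22) and Rbbp6 (0.48, and -0.82 without it). Of all genes, 31.6% turned sign without array 22. With array weights Pou5f1 was at -0.15, Sox2 -0.52, Cdx2 -0.44, Krt18 -0.26 and Pdgfra -0.05. With array 22 left out and quantile normalization Pou5f1 was at -0.11, Sox2 -0.42, Cdx2 -0.27 and Pdgfra -0.15, and with it left out and the spread as a covariate Sox2 was at -0.19 and Pdgfra -0.23. With quantile normalization alone Sox2 was at -0.12 and Cdx2 -0.09, and with the spread as a covariate Sox2 was at -0.0015. With an array left out Pou5f1 ran from -0.32 to 0.84, Sox2 from -0.41 to 0.23, Cdx2 from -0.43 to 0.31, Krt18 from -0.31 to 0.49, Gata6 from -0.36 to 0.14 and Pdgfra from -0.1 to 0.15. No paired analysis was possible because no array number is shared between groups. Precision is limited by 4 arrays per group, dim levels near the table median and unknown parents of the pools.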

Other observations

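With the signal spread as a covariate, a pair of genes passed the test of XX minus XY, both named after their values were seen. Glod4, of the glyoxalase family, had a difference of 2.0 (SE 0.28, limma adjusted p = 0.00505), against 1.17 without the covariate. In XX blastocysts it was at 2.72, 4.67, 2.23 and 2.24 with obese fathers and at 2.15, 2.24, 2.48 and 2.31 with lean parents. Mapk1ip1l had 1.69 (SE 0.27, adjusted p = 0.0199), against 0.94, with XX levels of 3.79, 6.03, 3.45 and 3.64 against 2.96, 3.53, 3.17 and 2.77. Array 22 was the highest of the 8 for both.

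The genes lowest on array 22 relative to the other 3 arrays of its group were specific to tissues other than the blastocyst, the seminal vesicle gene Svs3b (2.43 against 4.27 to 4.47), the cornified envelope gene Lce1i (3.27 against 4.82 to 4.97), the trypsin gene Try5 (2.70 against 4.13 to 4.34) and the olfactory receptor gene Olfr444 (2.18 against 3.59 to 3.94).

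Gas5, the host of Snord47, was also named after its values were seen. In XX blastocysts it was at 9.34, 10.0, 7.23 and 7.58 with obese fathers and at 7.86, 10.0, 10.1 and 8.90 with lean parents (-0.68, SE 0.70). In XY blastocysts it was 1.80 higher with obese fathers (limma adjusted p = 0.316).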
